A study of Rattus norvegicus with 12 samples.

Results

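The Wnt ligands, receptors and modulators of the rat PAC1 transcriptome were followed across the knockdown of 3 RNA-binding proteins. The group was set by symbol alone: every Wnt, Frizzled (Fzd), Sfrp, Dkk, Dact and R-spondin (Rspo) gene with a number, Axin1, Axin2, Lrp5, Lrp6, Lef1 and the Tcf7 genes, with Frzb, Wif1, Ctnnb1, Nkd1, Nkd2 and Ror2. These came to 58 of the 33294 symbols in the count table. The fall of Dact1 in each knockdown was already known when the group was drawn up.

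Wnt ligands are secreted lipid-modified glycoproteins that bind Frizzled receptors together with the co-receptors LRP5 and LRP6, and this binding holds back the Axin-containing complex that otherwise marks β-catenin for destruction. Stabilised β-catenin then acts in the nucleus with TCF and LEF factors. SFRP, FRZB and WIF1 proteins bind the ligands, most DKK proteins block the co-receptors, R-spondins keep receptors at the surface, and DACT and NKD proteins act on Dishevelled inside the cell. Non-canonical ligands such as WNT5A work through receptors such as ROR2 without β-catenin. In vascular smooth muscle the pathway is known for its links to proliferation and to the switch between contractile and synthetic states.

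PAC1 is an established line of rat pulmonary artery smooth muscle cells, here kept under the growth conditions of its more differentiated state. The study reports that control cells of its RBPMS, RBFOX2 and QK knockdown experiment had differentiated less than those of its other experiment. Cells received 90 pmol of the control siRNA C2 or of 1 siRNA against RBPMS, RBFOX2 or QKI, then a repeat dose after 24 h, and were taken 48 h later according to the labels. The study gives longer intervals, and this difference was not resolved. Each of the 4 groups had 3 poly(A) RNA-seq libraries of this 1 cell line, and although the study calls its replicates biological, the labels do not say which libraries came from separate cultures, so p-values measure the spread between these samples.

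Each knockdown used a single siRNA, so the sense strands are shown, as the study's supplementary list gives them, 5′ to 3′. No part is marked in capitals.
C2: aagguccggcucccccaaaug
RBPMS: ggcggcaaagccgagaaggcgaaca
RBFOX2: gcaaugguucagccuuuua
QK: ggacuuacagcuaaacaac

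Promoters of 42 of the 58 genes were present in the RefSeq table of the build GRCr8, each from 250 bases before to 50 bases after the start of the gene. They were searched for CTTTGA, the core that TCF and LEF factors recognise, and for its reverse complement TCAAAG. The motif was present in 6 of these 42 promoters, which is 14.3% of them, against 5384 of 33469 promoters (16.1%) in the table. The 6 were Axin2, Dkk1, Fzd7, Nkd1, Tcf7 and Wnt8a. Shown here are Axin2, which rose in QKI knockdown, Nkd1 and Tcf7, which fell in it, and Dact1, the gene with the deepest fall in QKI knockdown once genes averaging under 1 CPM in any group are set aside. Capitals mark the motif, and Dact1 has none in this window. The promoter of Dact1 held 79.3% G and C and that of Axin2 45.7%. A match to these letters describes the sequence only.
Axin2, chr10:94398535-94398834 (+ strand): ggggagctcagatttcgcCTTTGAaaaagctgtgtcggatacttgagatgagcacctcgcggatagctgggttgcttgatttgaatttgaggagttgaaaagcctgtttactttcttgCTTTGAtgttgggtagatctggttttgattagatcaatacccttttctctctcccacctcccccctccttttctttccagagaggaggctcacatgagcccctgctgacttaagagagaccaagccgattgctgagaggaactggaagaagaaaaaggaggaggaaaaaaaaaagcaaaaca
Nkd1, chr19:34722797-34723096 (- strand): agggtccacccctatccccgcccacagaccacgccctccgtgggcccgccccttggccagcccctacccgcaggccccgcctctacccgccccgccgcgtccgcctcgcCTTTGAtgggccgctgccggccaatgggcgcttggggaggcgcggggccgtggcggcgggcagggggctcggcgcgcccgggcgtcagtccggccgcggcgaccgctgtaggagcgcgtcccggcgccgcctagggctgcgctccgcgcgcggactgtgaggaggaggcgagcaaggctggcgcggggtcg
Tcf7, chr10:36954230-36954529 (- strand): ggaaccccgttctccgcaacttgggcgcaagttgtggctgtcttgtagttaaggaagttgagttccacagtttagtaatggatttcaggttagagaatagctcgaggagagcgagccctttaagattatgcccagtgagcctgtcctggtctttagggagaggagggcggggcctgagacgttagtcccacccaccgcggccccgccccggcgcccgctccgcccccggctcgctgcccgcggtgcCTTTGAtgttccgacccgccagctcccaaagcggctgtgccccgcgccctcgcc
Dact1, chr6:95526440-95526739 (+ strand): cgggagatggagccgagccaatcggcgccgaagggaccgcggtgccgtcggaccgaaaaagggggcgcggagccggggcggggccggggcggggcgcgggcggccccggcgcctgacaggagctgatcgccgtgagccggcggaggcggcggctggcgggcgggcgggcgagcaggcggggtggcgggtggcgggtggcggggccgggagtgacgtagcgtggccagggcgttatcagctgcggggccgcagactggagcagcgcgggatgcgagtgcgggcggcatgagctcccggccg

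Library totals ran from 110.6 to 151.7 M counts. Levels are given as CPM, counts divided by the TMM-adjusted library total on a common scale, and since transcript lengths were not used, levels of different genes are not compared with each other. The targeted genes were checked first. Rbpms had 39.4, 38.9 and 43.7 CPM in control against 6.96, 7.11 and 7.54 CPM after RBPMS knockdown. On the log2 scale the difference from control was -2.50 ± 0.065 (SE), with an adjusted p of 7.28e-15 from the quasi-likelihood test of edgeR after Benjamini-Hochberg adjustment. Rbfox2 went from 151.5, 152.1 and 159.4 CPM to 37.8, 36.2 and 37.9 CPM in its own knockdown, at -2.05 ± 0.044 on the log2 scale (edgeR adjusted p = 3.36e-16). Qk, the gene of QKI, went from 229.6, 242 and 229 CPM to 26.0, 26.5 and 27.3 CPM, at -3.13 ± 0.04 (edgeR adjusted p = 3.22e-19). Every targeted library lay below all control libraries. Rbpms was also lower in RBFOX2 knockdown, at -0.81 ± 0.058, and in QKI knockdown, at -0.49 ± 0.058 on the log2 scale (edgeR adjusted p = 2.1e-09 and 9.32e-07). Rbfox2 and Qk are not given here outside their own knockdown.

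RBPMS knockdown library 2 stood apart from the other two of its group. Its counts differed from theirs by a chi-square per degree of freedom of 57.8 and 45.6, while the other two differed from each other by 9.27 and replicates of the other groups by 4.64 to 21.5. Values are given with all libraries, and the counts of all tested Wnt genes called in RBPMS knockdown also without this one.

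Markers of the labelled cell type were present: all 8 smooth muscle genes had at least 1 CPM in control. Their summed level was 2109 to 2175 CPM in control, 1069 to 1176 CPM after RBPMS knockdown, 827 to 925 CPM after RBFOX2 knockdown and 1441 to 1526 CPM after QKI knockdown. The 4 fibroblast genes, also expressed by synthetic smooth muscle cells, summed to 7337 to 8472 CPM in control and to between 13940 and 17080 CPM across the knockdowns. Of the other lists, 3 of 6 endothelial genes reached 1 CPM in control (8.73 to 10.8 CPM summed, against 5.18 to 9.12 CPM across the knockdowns), as did 1 of 5 macrophage and leukocyte genes (1.48 to 1.57 CPM, against 5.43 to 5.98 CPM after QKI knockdown) and 1 of 4 epithelial genes (29.5 to 31.7 CPM, against 72.0 to 73.9 CPM after RBFOX2 knockdown). The adipocyte and neuronal list summed to 1.79 to 2.25 CPM in control and 1.01 to 2.95 CPM across the knockdowns. No gene of these lists was at 3 counts or fewer in every library. Genes with many counts weigh most in such sums, which therefore do not show how each gene of a list moved. The part of these shifts in the results below was not tested, and fewer cells of a type and less RNA per cell cannot be told apart in bulk RNA.

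Of the 58 genes, 8 had 3 counts or fewer in every library and were not detected beyond that floor: Wnt8a, Wnt9b, Wnt16, Rspo4, Dkk1, Dkk2, Sfrp1 and Fzd10, the last of these and Dkk2 with 0 counts throughout. A further 6, Wnt3, Wnt3a, Wnt7a, Wnt8b, Wnt10a and Sfrp5, had too few counts to be tested. The 44 tested genes were 11 of 19 Wnt ligands, 3 of 4 R-spondins, 6 of 10 secreted inhibitors, 9 of 10 Frizzled receptors, all 3 co-receptors, all 7 cytoplasmic modulators and all 5 β-catenin and TCF genes. In 34 genes the mean reached 1 CPM in at least 1 group. Together the 58 genes took 0.178 to 0.184% of all counts in control, 0.128 to 0.138% in RBPMS knockdown, 0.117 to 0.120% in RBFOX2 knockdown and 0.124 to 0.126% in QKI knockdown, so each knockdown library lay below each control library. Genes with many counts, Ctnnb1 and Dkk3 among them, weigh most in this sum. It therefore does not show how most of the genes moved.

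In RBPMS knockdown, 28 of the 44 tested genes passed an adjusted p under 0.05 in edgeR, with 8 higher and 20 lower. This is 63.6%, against 59.4% of all 18438 genes tested, of which 30.4% were higher and 29.0% lower. RBFOX2 knockdown had 29 that passed, 12 higher and 17 lower (65.9% against 60.3% of all genes, 30.1% higher and 30.1% lower). QKI knockdown had 32, with 7 higher and 25 lower (72.7% against 66.9%, of which 32.9% were higher and 34.0% lower). The shares that passed were thus near those of all genes, while lower calls outnumbered higher ones. Without RBPMS knockdown library 2, which also enters the spread shared by all groups, 27 passed in RBPMS knockdown (11 higher and 16 lower) and 34 in RBFOX2 knockdown (15 higher and 19 lower), while QKI knockdown again had 32. Axin1, Fzd5, Rspo2 and Wnt6 then lost their call in RBPMS knockdown, and Fzd2, Nkd1 and Tcf7 gained one. For fits without this library, here and below, no share over all genes is given. Their counts are not to be set against the shares from all libraries. The median log2 fold change with all libraries was -0.24, -0.06 and -0.43 in RBPMS, RBFOX2 and QKI knockdown, beside 0.01 over all genes in each.

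With the study's threshold of a change over 2-fold added, 8 genes changed in RBPMS knockdown, 2 higher and 6 lower. This is 18.2%, against 9.66% of all genes (5.16% higher and 4.5% lower), and without RBPMS knockdown library 2 it was 9 genes, 3 higher and 6 lower. Of the 8, only Rspo2 then dropped out, Dact1, Dact3, Dkk3, Frzb and Fzd9 stood at -1.81, -1.03, -1.76, -2.95 and -1.39 and Sfrp2 and Sfrp4 at 1.62 and 1.02 on the log2 scale, and Wnt5b (-1.04) and Rspo1 (1.01) joined them. RBFOX2 knockdown had 7, again 2 higher and 5 lower, or 15.9% against 11.7% of all genes (6.96% higher and 4.73% lower). QKI knockdown had 13, 3 higher and 10 lower, or 29.5% against 17.5% of all genes (8.28% higher and 9.24% lower). The 3 lists held 20 different genes. Only Dact1 and Dkk3 were lower by over 2-fold in all 3 knockdowns, which 156 of all genes tested were (0.846%), and no Wnt gene was higher by over 2-fold in all 3, beside 1.97% of all genes. Dact1 is among the lower genes of each knockdown, and its fall was known when the group was drawn up. It is thus no independent part of these counts. The 3 comparisons share the same control libraries. The map of log2 fold changes lays out all 44 genes by role.

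**Figure D1:**
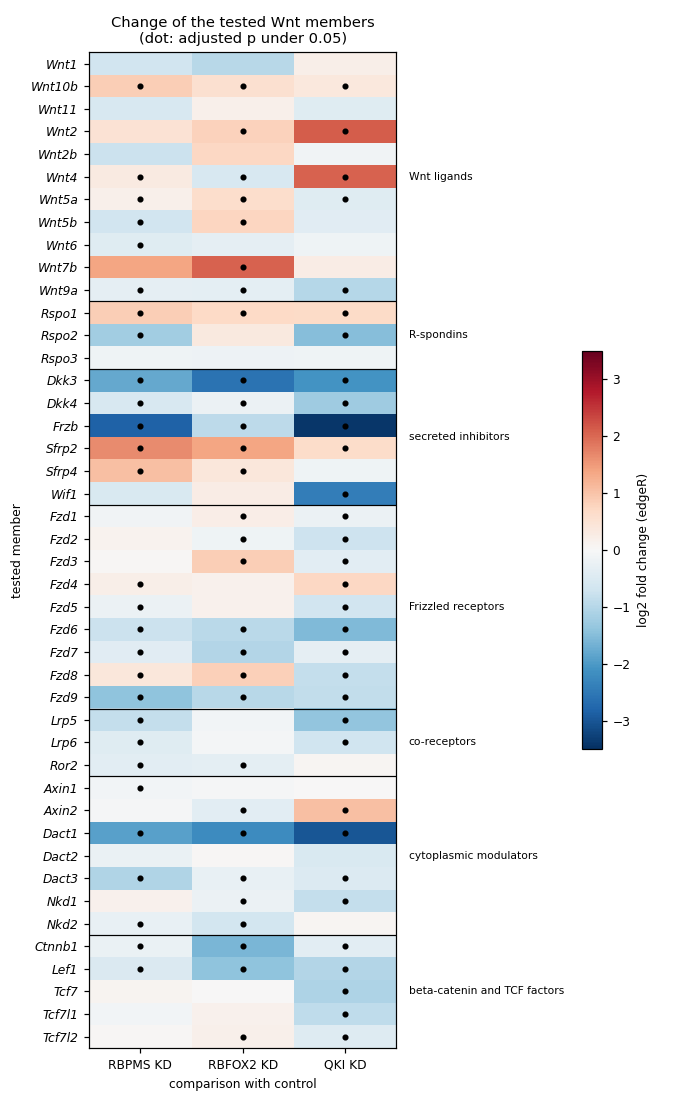
Log2 fold change against control (colour, edgeR) of the 44 tested Wnt genes, in rows grouped by role, for RBPMS, RBFOX2 and QKI knockdown in columns; a dot marks an adjusted p under 0.05. Dkk3 and Dact1 are blue in every column, and the darkest blue is Frzb in QKI knockdown at -3.41.

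Among the Wnt ligands, Wnt4 was lower in RBFOX2 knockdown and higher in QKI knockdown, and Wnt5a did the reverse. Wnt4, a ligand with roles in kidney and gonad development, had 14.3, 14.7 and 10.9 CPM in control, 17.5, 15.1 and 17.1 CPM after RBPMS knockdown, 9.13, 8.37 and 9.43 CPM after RBFOX2 knockdown and 55.2, 57.8 and 53.5 CPM after QKI knockdown. The QKI libraries stood clear of all others and the RBFOX2 libraries were the lowest. Its log2 fold changes were 0.32 ± 0.088, -0.57 ± 0.091 and 2.06 ± 0.087 (SE), in that order of knockdowns (edgeR adjusted p = 0.00524, 3.54e-05 and 9.73e-13), so Wnt4 was 4.17-fold higher in QKI knockdown. Wnt5a, the main non-canonical ligand, had 27.3, 27.9 and 25.3 CPM in control, 32.4, 28.2 and 31.1 CPM after RBPMS knockdown, 42.8, 40.3 and 41.1 CPM after RBFOX2 knockdown and 19.7, 19.8 and 19.9 CPM after QKI knockdown. The groups did not overlap at this scaling, and the changes were 0.19 ± 0.051, 0.63 ± 0.051 and -0.44 ± 0.052 on the log2 scale (edgeR adjusted p = 0.00462, 1.02e-08 and 9.13e-07).

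Of the 11 tested ligands, 6 passed in RBPMS knockdown (3 higher and 3 lower), 7 in RBFOX2 knockdown (5 higher and 2 lower) and 5 in QKI knockdown (3 higher and 2 lower). These are 54.5, 63.6 and 45.5% of the ligands, beside 59.4, 60.3 and 66.9% of all genes. The calls of Wnt5b, Wnt6 and Wnt9a, the 3 lower in RBPMS knockdown, were each lost without 1 of several single libraries, among them library 1 of RBPMS knockdown for all 3. Wnt10b, a canonical ligand that restrains fat cell formation, was the only ligand higher in all 3, by 0.86, 0.57 and 0.37 (edgeR adjusted p = 3.1e-06, 0.000244 and 0.00721). Wnt9a was lower in all 3, at -0.32, -0.33 and -0.995 ± 0.13, the last just inside 2-fold at 1.99-fold (edgeR adjusted p = 0.0339, 0.0256 and 1.94e-06). Both of its calls in RBPMS and RBFOX2 knockdown were lost without either of control libraries 1 and 2. Wnt2, under 1 CPM in every group, had 20, 29 and 20 counts in control and 97, 94 and 88 counts in QKI knockdown, a change of 2.13 ± 0.26 (edgeR adjusted p = 1.35e-06). Wnt7b had 2, 9 and 0 counts in control and 10, 11 and 26 counts in RBFOX2 knockdown. Its change of 2.05 ± 0.71 (edgeR adjusted p = 0.0195) no longer passed without control library 1 or 3 or without RBFOX2 knockdown library 3, and ranged from 1.46 to 3.71 with a library left out.

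The R-spondins, which amplify Wnt signals, were all under 1 CPM. Rspo1 was higher in each knockdown, by 0.86, 0.70 and 0.67 on the log2 scale (edgeR adjusted p = 0.0022, 0.00907 and 0.0115), from 42, 64 and 50 counts in control. The call in QKI knockdown was lost without QKI knockdown library 2. Rspo2 had 32, 26 and 56 counts in control, 12, 12 and 18 after RBPMS knockdown, 36, 82 and 30 after RBFOX2 knockdown and 20, 6 and 12 after QKI knockdown. Its changes were -1.22 ± 0.47, 0.33 ± 0.41 and -1.49 ± 0.48 (edgeR adjusted p = 0.0343, 0.506 and 0.0109). With 1 library left out, the change in RBPMS knockdown ran from -1.49 to -0.84 and no longer passed without control library 1 or 3 or RBPMS knockdown library 1 or 2, nor with a replicate block. That in QKI knockdown ran from -1.89 to -1.115 and no longer passed without control library 3 or QKI knockdown library 2. Rspo3 did not pass in any knockdown, with adjusted p of 0.651 to 0.69 in edgeR.

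Secreted inhibitors moved both ways. Dkk3, a divergent member of the Dickkopf family, had 202, 206 and 196 CPM in control, 61.0, 55.6 and 58.1 CPM after RBPMS knockdown, 34.4, 33.7 and 32.5 CPM after RBFOX2 knockdown and 44.9, 50.2 and 45.5 CPM after QKI knockdown. Every knockdown library lay far below control, and none of the 4 groups overlapped another. The log2 fold changes were -1.79 ± 0.046, -2.59 ± 0.048 and -2.10 ± 0.047 (SE; edgeR adjusted p = 7.28e-15, 8.63e-17 and 2.59e-16), that is 3.45-fold, 6.00-fold and 4.29-fold lower. Dkk4, an inhibitor of LRP5 and LRP6, had 11.3, 10.3 and 10.5 CPM in control, 7.50, 7.35 and 7.02 CPM after RBPMS knockdown, 9.77, 8.92 and 9.19 CPM after RBFOX2 knockdown and 4.76, 4.48 and 4.37 CPM after QKI knockdown. It fell in each, at -0.55, -0.20 and -1.23 ± 0.064, past 2-fold only in QKI knockdown (edgeR adjusted p = 6.18e-07, 0.0082 and 1.47e-11).

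Frzb, a soluble Frizzled-related decoy, had 1.19, 0.853 and 2.38 CPM in control, 0.160, 0.237 and 0.218 CPM after RBPMS knockdown, 0.636, 1.09 and 0.617 CPM after RBFOX2 knockdown and 0.144, 0.104 and 0.161 CPM after QKI knockdown. Control library 3 held the highest value, and the RBFOX2 libraries overlapped control. Its changes were -2.83 ± 0.37, -0.91 ± 0.31 and -3.41 ± 0.39 on the log2 scale (SE; edgeR adjusted p = 3.63e-06, 0.0161 and 4.92e-07). Leaving out 1 library gave -3.11 to -2.30 in RBPMS knockdown and -3.70 to -2.88 in QKI knockdown, both still past 2-fold, but the call in RBFOX2 knockdown was lost without control library 3 (-0.38) or without RBFOX2 knockdown library 1 or 3. Wif1, a ligand-binding inhibitor under 1 CPM, had 54, 51 and 35 counts in control and 13, 11 and 0 counts in QKI knockdown, with a fitted change of -2.43 ± 0.50 (edgeR adjusted p = 0.000386).

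Sfrp2 and Sfrp4, which encode secreted Frizzled-related proteins, rose in RBPMS and RBFOX2 knockdown, and Sfrp2 also rose in QKI knockdown. Sfrp2 had 3.71, 2.88 and 4.54 CPM in control, 12.5, 12.5 and 10.3 CPM after RBPMS knockdown, 9.88, 9.18 and 9.64 CPM after RBFOX2 knockdown and 5.97, 5.76 and 5.69 CPM after QKI knockdown, with every knockdown library above all control libraries. It was 3.18-fold, 2.58-fold and 1.57-fold higher, at log2 changes of 1.67 ± 0.12, 1.37 ± 0.12 and 0.65 ± 0.12 (edgeR adjusted p = 1.6e-09, 1.71e-08 and 0.000116). Sfrp4 had 9.72, 11.9 and 9.21 CPM in control, 19.6, 22.4 and 22.2 CPM after RBPMS knockdown, 13.2, 14.3 and 13.3 CPM after RBFOX2 knockdown and 9.10, 8.73 and 10.2 CPM after QKI knockdown. RBPMS and RBFOX2 libraries lay above control, while QKI libraries overlapped it. The changes were 1.06 ± 0.085, 0.40 ± 0.085 and -0.14 ± 0.087 (edgeR adjusted p = 9.94e-09, 0.00062 and 0.175), and the first came to 0.98, short of 2-fold, without control library 3. Over the 6 tested inhibitors, 5 passed in each knockdown, with 2 higher and 3 lower for RBPMS, the same split for RBFOX2, and 1 higher and 4 lower for QKI. That is 83.3% of them in each, beside 59.4, 60.3 and 66.9% of all genes.

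**Figure D2:**
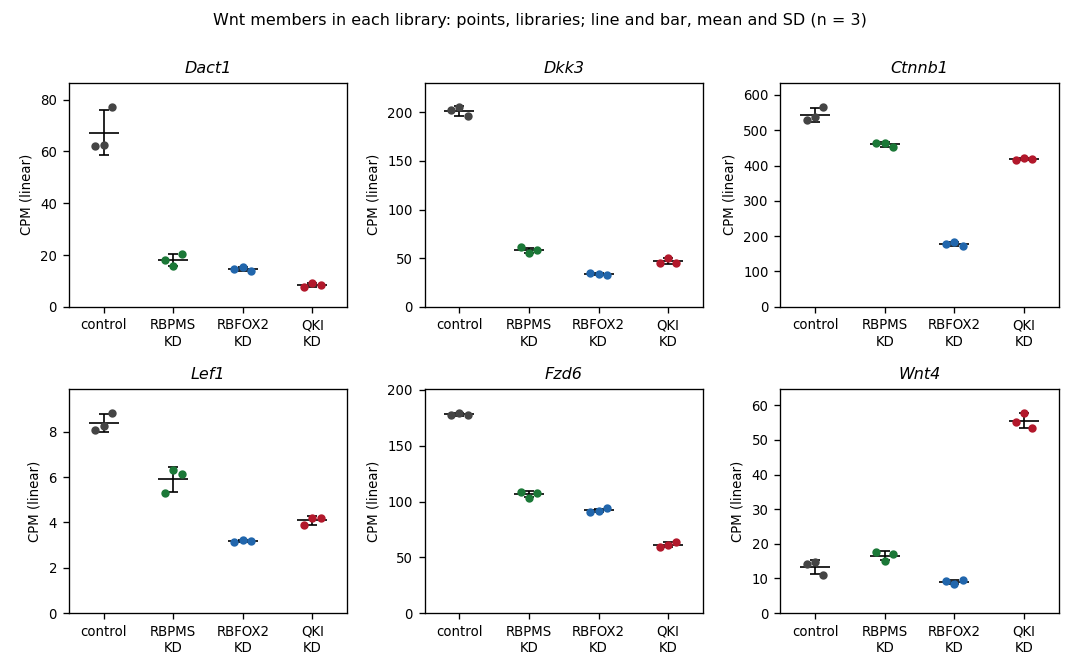
CPM on linear axes starting at 0 for Dact1, Dkk3, Ctnnb1, Lef1, Fzd6 and Wnt4 in control, RBPMS, RBFOX2 and QKI knockdown; points are single libraries, lines means and bars SD (n = 3). Dact1 and Dkk3 drop in all knockdowns, Ctnnb1 is lowest in RBFOX2 knockdown at 178 ± 5.45 CPM, and Wnt4 is high in QKI knockdown at 55.5 ± 2.17 CPM.

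The Frizzled genes encode the membrane-spanning receptors of Wnt ligands. All 9 tested receptors passed in QKI knockdown, with Fzd4 higher and 8 lower, although the call for Fzd1 was lost when libraries were scaled by their totals. In RBPMS knockdown 6 passed, 2 higher and 4 lower, and in RBFOX2 knockdown 7, of which 3 were higher and 4 lower. The shares in RBPMS, RBFOX2 and QKI knockdown were thus 66.7, 77.8 and 100%, beside 59.4, 60.3 and 66.9% of all genes. Among these calls, those of Fzd4 and Fzd5 in RBPMS knockdown were lost in 5 and 4 of 21 alternatives and that of Fzd2 in RBFOX2 knockdown in 4. Fzd6 had 178, 179 and 177 CPM in control, 109, 103 and 108 CPM after RBPMS knockdown, 91.0, 91.3 and 93.9 CPM after RBFOX2 knockdown and 59.1, 60.9 and 63.4 CPM after QKI knockdown. The 4 groups formed a descending series in that order with no overlap. Its changes were -0.74 ± 0.034, -0.95 ± 0.034 and -1.54 ± 0.035 (SE; edgeR adjusted p = 1.01e-11, 2.7e-13 and 3.58e-16), past 2-fold in QKI knockdown at 2.91-fold lower.

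Fzd7 had 63.5, 66.2 and 66.7 CPM in control, 50.9, 43.4 and 54.3 CPM after RBPMS knockdown, 32.9, 31.0 and 32.1 CPM after RBFOX2 knockdown and 52.5, 54.1 and 51.4 CPM after QKI knockdown. RBFOX2 libraries were the lowest, and those of RBPMS and QKI knockdown overlapped each other below control. The log2 changes were -0.40 ± 0.059, -1.03 ± 0.06 and -0.31 ± 0.059 (edgeR adjusted p = 1.45e-05, 1.23e-10 and 0.000148), and the second came to -0.98, short of 2-fold, with scaling by library totals. Fzd9 had 2.69, 2.48 and 2.36 CPM in control, 0.846, 0.894 and 1.07 CPM after RBPMS knockdown, 1.48, 1.25 and 1.09 CPM after RBFOX2 knockdown and 1.28, 1.22 and 1.67 CPM after QKI knockdown. All knockdown libraries lay below control, at changes of -1.42 ± 0.15, -0.98 ± 0.14 and -0.85 ± 0.14 (edgeR adjusted p = 3.52e-07, 1.53e-05 and 5.41e-05).

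Several receptors changed one way in RBFOX2 knockdown and the other way in QKI knockdown. Fzd8 had 35.0, 37.1 and 36.5 CPM in control, 42.4, 46.9 and 52.3 CPM after RBPMS knockdown, 64.8, 64.0 and 63.4 CPM after RBFOX2 knockdown and 20.4, 18.9 and 22.1 CPM after QKI knockdown, with no overlap between groups. The changes were 0.38 ± 0.063, 0.82 ± 0.063 and -0.82 ± 0.065 (edgeR adjusted p = 5.09e-05, 4.56e-09 and 4.72e-09). Fzd3 had 6.27, 6.22 and 5.83 CPM in control, 11.1, 10.3 and 11.6 CPM after RBFOX2 knockdown and 4.45, 4.55 and 5.19 CPM after QKI knockdown, at 0.85 and -0.37 on the log2 scale (edgeR adjusted p = 2.42e-08 and 0.000439). Fzd1 showed the same pattern at 0.23 and -0.20 (edgeR adjusted p = 0.000612 and 0.00193). Fzd4, the receptor of the vascular ligand norrin, rose by 0.73 in QKI knockdown, while Fzd2 and Fzd5 had changes of -0.73 and -0.68 there (edgeR adjusted p = 4.27e-08, 4.39e-10 and 2.34e-07).

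Both LRP co-receptors fell in RBPMS and in QKI knockdown. Lrp5 had 88.6, 86.6 and 94.8 CPM in control, 54.0, 44.6 and 51.6 CPM after RBPMS knockdown, 87.7, 84.5 and 82.6 CPM after RBFOX2 knockdown and 34.7, 35.0 and 34.7 CPM after QKI knockdown. RBFOX2 libraries overlapped control, and the other knockdown libraries lay below it, those of QKI lowest. The changes were -0.85 ± 0.056, -0.08 ± 0.055 and -1.37 ± 0.057 (SE; edgeR adjusted p = 8.32e-10, 0.202 and 7.36e-13), so Lrp5 was 2.59-fold lower in QKI knockdown. Lrp6 had 121, 125 and 133 CPM in control, 101, 81.1 and 101 CPM after RBPMS knockdown, 118, 118 and 121 CPM after RBFOX2 knockdown and 76.0, 76.6 and 80.3 CPM after QKI knockdown. Its changes ran -0.42 ± 0.063, -0.08 ± 0.063 and -0.70 ± 0.064 (edgeR adjusted p = 1.92e-05, 0.281 and 2.93e-08). Without RBPMS knockdown library 2 the changes in RBPMS knockdown were -0.77 for Lrp5 and -0.32 for Lrp6, and those in RBFOX2 knockdown, -0.09 and -0.08, also passed (edgeR adjusted p = 0.0343 and 0.0305). Ror2, the WNT5A receptor tyrosine kinase, was lower in RBPMS and RBFOX2 knockdown, at -0.36 and -0.33, and had 0.07 in QKI knockdown (edgeR adjusted p = 0.0001, 0.000188 and 0.37).

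**Figure D3:**
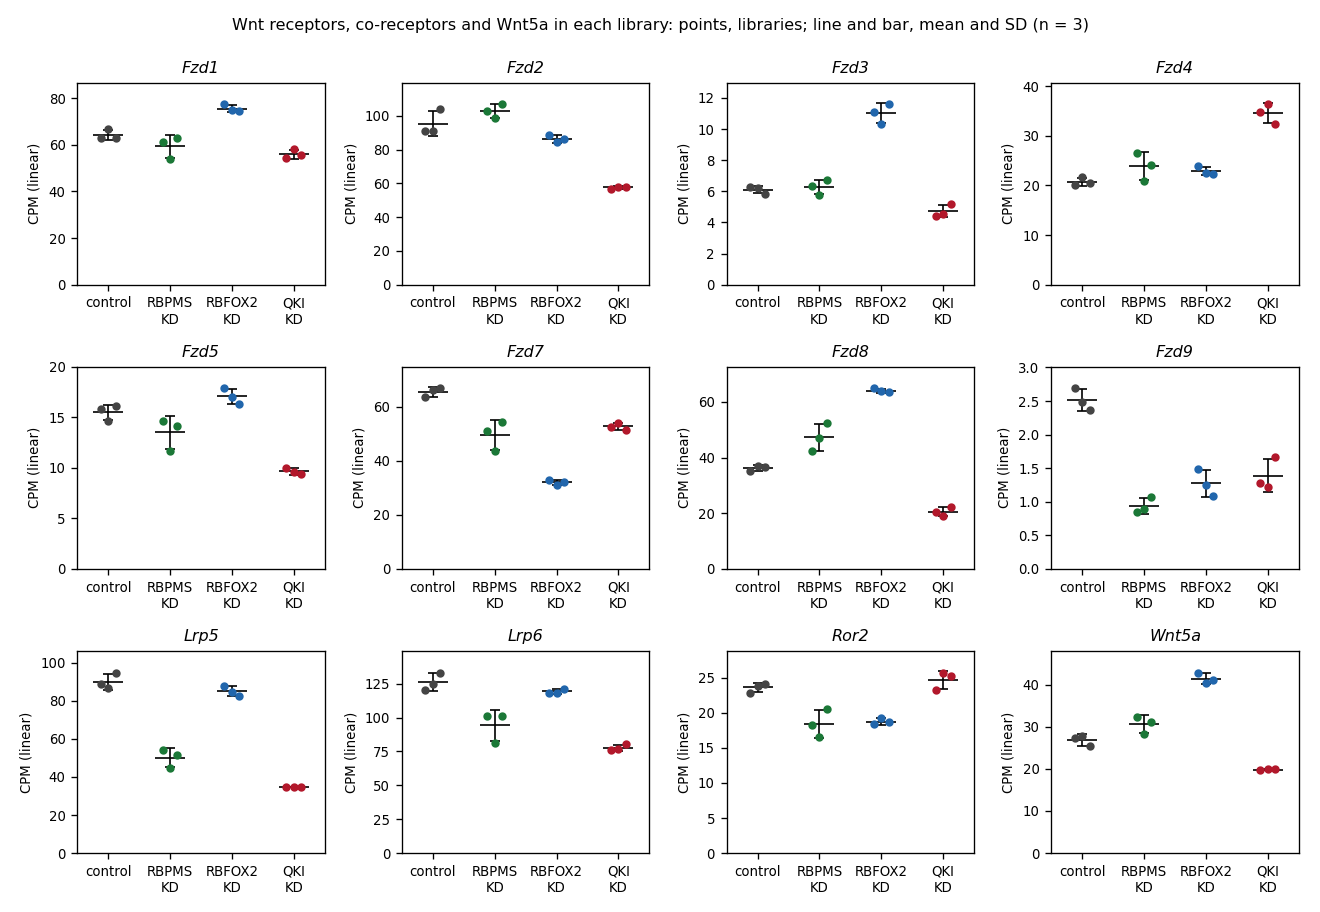
CPM on linear axes starting at 0 for 8 Frizzled receptors, the co-receptors Lrp5, Lrp6 and Ror2 and the ligand Wnt5a in the 4 groups; points are libraries, lines means and bars SD (n = 3). Fzd3, Fzd8 and Wnt5a are highest in RBFOX2 knockdown and lowest in QKI knockdown, and Lrp5 is lowest in QKI knockdown at 34.8 ± 0.160 CPM.

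Among the cytoplasmic modulators, Dact1, a Dishevelled-binding protein, fell in every knockdown. This fall was known when the group was drawn up, so the tests of Dact1 against control describe its size and are no independent support. It had 62.1, 62.3 and 77.3 CPM in control, 18.2, 15.7 and 20.3 CPM after RBPMS knockdown, 14.6, 15.2 and 13.7 CPM after RBFOX2 knockdown and 7.50, 9.37 and 8.34 CPM after QKI knockdown. Control library 3 was the highest, no knockdown library came near control, and the groups did not overlap at this scaling. The log2 fold changes were -1.90 ± 0.096, -2.21 ± 0.097 and -3.003 ± 0.10 (SE; edgeR adjusted p = 2.87e-11, 3.11e-12 and 5.39e-14), so Dact1 was 3.72-fold, 4.63-fold and 8.02-fold lower. With any 1 library left out they stayed at -1.99 to -1.79, -2.27 to -2.10 and -3.09 to -2.89. Its paralogue Dact3 had 34.0, 34.7 and 38.4 CPM in control, 16.7, 16.6 and 18.2 CPM after RBPMS knockdown, 30.5, 29.3 and 29.0 CPM after RBFOX2 knockdown and 25.6, 26.1 and 24.5 CPM after QKI knockdown. Dact3 was lower in all 3, at -1.06 ± 0.053, -0.27 ± 0.051 and -0.49 ± 0.051 (edgeR adjusted p = 2.36e-11, 0.000194 and 1.8e-07), with the lowest libraries in RBPMS knockdown. The third paralogue, Dact2, did not pass in any, with edgeR adjusted p of 0.771, 0.948 and 0.483.

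Axin2, a scaffold of the destruction complex and itself a β-catenin target, had 2.67, 2.97 and 2.46 CPM in control, 3.29, 2.42 and 2.25 CPM after RBPMS knockdown, 2.08, 2.23 and 1.94 CPM after RBFOX2 knockdown and 5.13, 5.94 and 5.77 CPM after QKI knockdown. QKI libraries lay above all others, and RBPMS libraries overlapped control. The changes were -0.03 ± 0.13, -0.37 ± 0.13 and 1.05 ± 0.12 (edgeR adjusted p = 0.856, 0.0175 and 5.41e-07). The rise in QKI knockdown came to 0.99, short of 2-fold, without control library 3, and the call in RBFOX2 knockdown was lost without control library 2 or RBFOX2 knockdown library 3. Axin1, the constitutive scaffold, had changes of -0.09, -0.03 and 0.02 (edgeR adjusted p = 0.0271, 0.415 and 0.656), and the call in RBPMS knockdown did not hold when only its own 6 libraries entered the fit, nor without control library 1 or 2 or RBPMS knockdown library 1 or 2. Nkd1 and Nkd2, inhibitors that bind Dishevelled, parted: Nkd1 was lower in QKI knockdown at -0.83 and in RBFOX2 knockdown at -0.21, and Nkd2 was lower in RBPMS knockdown at -0.25 and in RBFOX2 knockdown at -0.63 (edgeR adjusted p = 3.23e-09, 0.00644, 0.00183 and 8.65e-08).

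All 5 β-catenin and TCF genes were lower in QKI knockdown, while 2 were lower in RBPMS knockdown and 2 lower with 1 higher in RBFOX2 knockdown. The shares that passed were 40, 60 and 100% in RBPMS, RBFOX2 and QKI knockdown, beside 59.4, 60.3 and 66.9% of all genes. Ctnnb1, which encodes β-catenin, had 528, 536 and 567 CPM in control, 463, 464 and 452 CPM after RBPMS knockdown, 177, 184 and 173 CPM after RBFOX2 knockdown and 414, 422 and 419 CPM after QKI knockdown. The groups did not overlap at this scaling, and RBFOX2 libraries lay far below the rest. The changes were -0.24 ± 0.034, -1.61 ± 0.035 and -0.38 ± 0.034 (SE; edgeR adjusted p = 9.52e-06, 4.16e-16 and 2.73e-08), so Ctnnb1 was 3.05-fold lower in RBFOX2 knockdown. Lef1, a nuclear partner of β-catenin, had 8.08, 8.27 and 8.84 CPM in control, 5.29, 6.30 and 6.12 CPM after RBPMS knockdown, 3.15, 3.22 and 3.18 CPM after RBFOX2 knockdown and 3.88, 4.19 and 4.21 CPM after QKI knockdown. Here too the groups did not overlap, at changes of -0.51 ± 0.073, -1.40 ± 0.076 and -1.04 ± 0.075 (edgeR adjusted p = 1.3e-05, 5.55e-11 and 1.42e-09). The change in QKI knockdown fell short of 2-fold with scaling by library totals, in the normalised table (-0.91) and without QKI knockdown library 1.

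Tcf7, which encodes TCF1, had 16.5, 16.8 and 17.3 CPM in control, 18.3, 16.8 and 18.5 CPM after RBPMS knockdown, 16.9, 17.0 and 16.9 CPM after RBFOX2 knockdown and 8.13, 7.66 and 7.99 CPM after QKI knockdown. Only the QKI libraries stood apart from control, at -1.09 ± 0.051 (edgeR adjusted p = 3.89e-12), and in the normalised table this came to -0.93. In RBPMS and RBFOX2 knockdown its changes were 0.08 ± 0.049 and 0.01 ± 0.048 (edgeR adjusted p = 0.147 and 0.918). Tcf7l1, often a repressor, and Tcf7l2 were lower in QKI knockdown at -0.89 and -0.46, and Tcf7l2 was higher in RBFOX2 knockdown by 0.18 (edgeR adjusted p = 2.54e-09, 2.14e-07 and 0.00386).

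Differences between knockdowns were tested directly as contrasts of the same fit over all 12 libraries. Scaling by library totals moved the median gene by 0.13 on the log2 scale between QKI and RBPMS knockdown, and small differences between these groups are to be read relative to that. RBFOX2 against RBPMS knockdown had 31 of 44 genes past the adjusted p in edgeR, with 17 higher and 14 lower in RBFOX2 knockdown (70.5% against 56.7% of all genes), and 5 changed over 2-fold, 4 higher and 1 lower, against 7.52% of all genes (4.41% higher and 3.1% lower). QKI against RBPMS knockdown had 31, with 9 higher and 22 lower in QKI knockdown (61.0% of all genes passed), and 9 changed over 2-fold, 3 higher and 6 lower, against 12.2% of all genes (5.66% higher and 6.53% lower). QKI against RBFOX2 knockdown had 34, with 10 higher and 24 lower in QKI knockdown (68.5% of all genes passed), and 16 changed over 2-fold, 4 higher and 12 lower. That is 36.4% of the tested Wnt genes, beside 18.4% of all genes (7.74% higher and 10.6% lower), and the median log2 difference was -0.59, beside -0.01 over all genes. Without RBPMS knockdown library 2, RBFOX2 against RBPMS knockdown had 28 that passed (13 higher and 15 lower) and 4 changed over 2-fold, and QKI against RBPMS knockdown had 33 (10 higher and 23 lower) and 9.

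Wnt4 was 6.18-fold higher in QKI than in RBFOX2 knockdown, with a log2 difference of 2.63 ± 0.09 (SE; edgeR adjusted p = 6.45e-14), and 3.35-fold higher than in RBPMS knockdown. Ctnnb1 was lower in RBFOX2 knockdown than in RBPMS knockdown at -1.37 ± 0.035 and higher in QKI than in RBFOX2 knockdown by 1.23 ± 0.035 (edgeR adjusted p = 5.93e-15 and 5.55e-15). Its difference between QKI and RBPMS knockdown, -0.14 ± 0.034 (edgeR adjusted p = 0.00229), was lost with scaling by library totals and turned to 0.040 in the normalised table. Fzd8, Fzd3 and Wnt5a were lower in QKI than in RBFOX2 knockdown at -1.64 ± 0.065, -1.22 ± 0.076 and -1.06 ± 0.052 (edgeR adjusted p = 4.6e-13, 1.89e-10 and 7.25e-12). Lrp5 was likewise lower in QKI than in RBFOX2 knockdown, at -1.29 ± 0.057 (edgeR adjusted p = 1.82e-12). Axin2 was higher in QKI knockdown than in either of the others, by 1.08 ± 0.12 against RBPMS and 1.43 ± 0.12 against RBFOX2 knockdown (edgeR adjusted p = 6.02e-07 and 1.43e-08), while Tcf7 was lower in it at -1.17 ± 0.051 and -1.09 ± 0.051 (edgeR adjusted p = 2.69e-12 and 3.86e-12).

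The 2 genes lower by over 2-fold in every knockdown did not fall equally. Dact1 was lower in QKI knockdown than in RBPMS knockdown at -1.11 ± 0.10 and than in RBFOX2 knockdown at -0.79 ± 0.10 (edgeR adjusted p = 5.08e-08 and 2.32e-06). Its difference between RBFOX2 and RBPMS knockdown was -0.31 ± 0.098 (edgeR adjusted p = 0.0112), a call lost with scaling by library totals and without RBPMS or RBFOX2 knockdown library 3. Dkk3 was lowest in RBFOX2 knockdown, at -0.80 ± 0.046 against RBPMS knockdown, with QKI above RBFOX2 knockdown by 0.48 ± 0.046 (edgeR adjusted p = 2.81e-10 and 5.66e-08). Fzd7 differed by 0.09 ± 0.059 between QKI and RBPMS knockdown, Frzb at -0.58 ± 0.48 between the same groups and Fzd9 by 0.13 ± 0.15 between QKI and RBFOX2 knockdown, none of which passed (edgeR adjusted p = 0.209, 0.309 and 0.473).

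**Figure D4:**
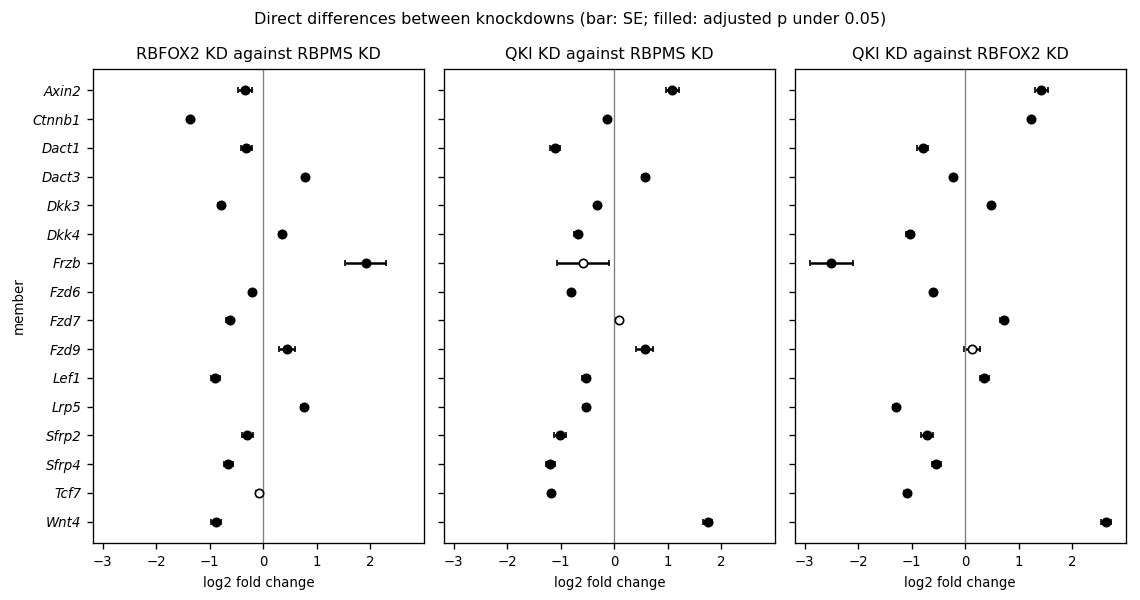
Log2 fold change between knockdowns of 16 Wnt genes in 3 panels, RBFOX2 against RBPMS, QKI against RBPMS and QKI against RBFOX2 knockdown; points are edgeR estimates, bars SE, and filled points have an adjusted p under 0.05. Wnt4 lies farthest to the right in the QKI panels, at 1.75 and 2.63, and Ctnnb1 farthest to the left against RBPMS in the RBFOX2 panel at -1.37.

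Beyond these genes, 57 of 60 other Wnt pathway genes were tested. In RBPMS knockdown 45 passed, 11 higher and 34 lower, in RBFOX2 knockdown 41, 16 higher and 25 lower, and in QKI knockdown 41, 18 higher and 23 lower. These are 78.9, 71.9 and 71.9%, beside 59.4, 60.3 and 66.9% of all genes. The median log2 changes were -0.20, -0.10 and -0.09, beside 0.01 over all genes in each. Over 2-fold, 7, 5 and 14 changed, or 12.3, 8.77 and 24.6%, beside 9.66, 11.7 and 17.5% of all genes. Kremen1, a DKK receptor, had 18.9 ± 0.651 CPM in control and 8.18 ± 0.851 CPM after RBPMS knockdown (SD, n = 3), a change of -1.21 ± 0.068, and it was also lower in RBFOX2 and QKI knockdown, at -0.92 and -0.97 (edgeR adjusted p = 1.12e-10, 2.16e-09 and 7.27e-10). Porcn, the acyltransferase that lipidates Wnt ligands, was lower in RBPMS, RBFOX2 and QKI knockdown, at -1.17, -0.26 and -1.19 (edgeR adjusted p = 7.98e-08, 0.0423 and 3.87e-08). Ror1, a receptor kinase related to Ror2, was higher by 1.16, 1.02 and 1.33 in RBPMS, RBFOX2 and QKI knockdown (edgeR adjusted p = 9.12e-08, 4.06e-07 and 9.1e-09). Celsr3, a planar polarity cadherin, fell in RBPMS and RBFOX2 knockdown at -1.01 and -0.45, and had -0.09 in QKI knockdown (edgeR adjusted p = 5.43e-08, 0.000344 and 0.378).

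In RBFOX2 knockdown, Gsk3b, the kinase that marks β-catenin for destruction, went from 73.3 ± 4.48 CPM to 157 ± 2.86 CPM at 1.10 ± 0.053, and in QKI knockdown it was lower at -0.39 ± 0.053 (edgeR adjusted p = 1.17e-11 and 5.12e-06). It was also higher in RBPMS knockdown, at 122 ± 10.4 CPM and 0.74 ± 0.053 (edgeR adjusted p = 2.24e-09). Adgra2, the GPR124 partner of RECK in WNT7 signalling, fell from 183 ± 6.75 CPM to 53.7 ± 1.26 CPM after RBFOX2 knockdown (edgeR adjusted p = 2.33e-13), and its changes were -0.43 in RBPMS and 0.01 in QKI knockdown (edgeR adjusted p = 1.16e-05 and 0.865). Reck itself rose in all 3, most in QKI knockdown, from 30.9 ± 3.23 CPM to 89.1 ± 4.27 CPM (edgeR adjusted p = 4.84e-13). QKI knockdown also lowered Daam2, a Dishevelled-binding formin, at -1.62, Amer1, a destruction complex scaffold, at -1.53, and Vangl1, a planar polarity protein, at -1.45 (edgeR adjusted p = 2.58e-11, 3.07e-11 and 1.67e-14).

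Of 26 textbook β-catenin target genes, 5 of which belong to the Wnt group and another 5 to the pathway list, 22 were tested. In RBPMS knockdown 16 passed, 12 higher and 4 lower, in RBFOX2 knockdown 19, 12 higher and 7 lower, and in QKI knockdown 18, 10 higher and 8 lower. These are 72.7, 86.4 and 81.8%, beside 59.4, 60.3 and 66.9% of all genes. The median log2 changes were 0.27, 0.22 and 0.04, beside 0.01 over all genes in each. Over 2-fold, 5, 5 and 10 changed, or 22.7, 22.7 and 45.5%, beside 9.66, 11.7 and 17.5% of all genes. Without the 5 that belong to the Wnt group, 18 were tested, of which 15, 16 and 14 passed (12 higher and 3 lower, 12 and 4, and 9 and 5), with medians of 0.34, 0.41 and 0.18, and 5, 4 and 7 changed over 2-fold. Cd44, a hyaluronan receptor, rose in each, from 230.1 ± 20.0 CPM to 706 ± 14.2, 628 ± 7.90 and 616 ± 21.1 CPM (edgeR adjusted p = 5.61e-14, 1.02e-13 and 6.12e-14). Ccnd1, the cyclin of early cell cycle entry, fell in QKI knockdown from 1262 ± 53.3 CPM to 268 ± 7.41 CPM, at -2.23 ± 0.037, and was higher by 0.23 and 0.30 in the other two (edgeR adjusted p = 6.71e-18, 2.17e-05 and 8.68e-07). Myc rose by 1.29 and Fosl1, a subunit of the factor AP-1, by 1.00 in RBPMS knockdown (edgeR adjusted p = 3.79e-13 and 2.45e-11). The changes of Myc in RBFOX2 and QKI knockdown were 0.78 and 0.01 and those of Fosl1 0.53 and 0.29 (edgeR adjusted p = 1.59e-10, 0.893, 5.72e-08 and 4.93e-05). Id2, an inhibitor of DNA binding by helix-loop-helix factors, and Bambi, a TGF-β pseudoreceptor, rose in QKI knockdown by 1.39 and 1.11 (edgeR adjusted p = 9.76e-14 and 2.68e-10), with 0.79 and 0.85 for Id2 and 0.30 and 0.26 for Bambi after RBPMS and RBFOX2 knockdown (edgeR adjusted p = 4.07e-10, 1.11e-10, 0.002 and 0.00486). Targets thus moved in both directions in every knockdown.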

How the data were processed

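Gene counts were deposited by the authors as a table of raw counts for 33294 symbols, made per the study's methods with STAR as aligner, mRatBN7.2 as the rat build and featureCounts as counter. Library totals in this table lie above the read depth that the methods give after subsampling, so it may not be the table those methods describe, and the difference was not resolved. The submitters' processing notes list STAR 2.5.2a, edgeR 3.28.1 and DESeq2 1.30.0. How reads shared by paralogues or overlapping genes were counted is not given in the sources used here, so close Wnt family members are uncertain to that extent. A second table deposited by the authors holds a quantile-normalised signal for 22320 genes with a lowest value of 5, and it served only as an alternative.

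Groups came from the sample titles. The counts entered edgeR 4.0.16 (R 4.3.3). Its filterByExpr kept 18438 genes with 99.99% of counts, TMM set the scaling, and 1 quasi-likelihood fit over all 12 libraries gave each contrast. SE is the absolute log2 fold change over the square root of F. Genes passed at an adjusted p under 0.05 and were called changed where the absolute log2 fold change also exceeded 1. The p-values were adjusted over all genes tested. A single gene tested by exact permutation of 3 against 3 libraries could not go below p = 0.1, so no such test was used. Among counts from 1 to 19, 68.1% were even, against 50.9% of those above 1000, and a fit on halved counts was run as an alternative. Replicates within each group differed by more than sampling noise (chi-square per degree of freedom 4.64 to 57.8), so none was merged.

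Values in every library are given for the siRNA targets, for Ctnnb1 and for genes changed over 2-fold in at least 1 knockdown with a mean of at least 1 CPM in a group. Of the pathway and target lists, those with at least 5 CPM were named, at most the 4 largest per knockdown. Wnt5a, Fzd3, Fzd8, Lrp6, Wnt2, Wnt7b, Rspo2 and Wif1 were given with more values, and other Wnt genes with short ones, after their values were seen. The Wnt genes and all lists were chosen with earlier results of these data known. Alternatives were other scalings (RLE size factors within edgeR, or library totals), no filter, and a mean of at least 200 counts. Also run were DESeq2 1.42.0, and limma 3.58.1 on log2 of the normalised signal plus 1. Further ones were glmTreat, only the 6 libraries compared, a replicate block and leaving out each library.

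Same-numbered libraries of different groups did not deviate together (18 pairs, r from -0.113 to 0.099, 0 of them over 0.1), so the numbers were not taken as pairs. Among the 36 pairs with different numbers r ran from -0.168 to 0.191, with 4 over 0.1, and the cause was not tested.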

Additional observations from a re-analysis of the deposited data

How the results depend on the processing

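Counts of Wnt genes changed over 2-fold kept within 1.5 times of their value under scaling by size factors or library totals, without a filter, in DESeq2, in the normalised table, with halved counts and with only the 6 libraries compared. A test against 2-fold itself (glmTreat) lowered them, to 5, 5 and 9 for RBPMS, RBFOX2 and QKI knockdown against control. Between knockdowns it left 1 for RBFOX2 against RBPMS, 3 for QKI against RBPMS and 8 for QKI against RBFOX2 knockdown. A mean of at least 200 counts left 1 for RBFOX2 against RBPMS and 10 for QKI against RBFOX2 knockdown, with 4 other pathway genes and 2 β-catenin targets in RBPMS and 2 targets in RBFOX2 knockdown, since it tests fewer genes. Leaving out 1 library gave 6 to 9, 6 to 9 and 12 to 15 changed Wnt genes in RBPMS, RBFOX2 and QKI knockdown. The replicate numbers did not pair the libraries, with 2 of 12 correlating best with their own number, and a fit with the replicate block gave 7, 7 and 13. For the counts under all these alternatives, glmTreat among them, no share over all genes is given. They are not to be set against the shares of the main fit. For the 89 gene and knockdown pairs that passed, the sign held in every alternative. Over all 132 pairs tested against control, the call by adjusted p was the same throughout in 98 and the 2-fold call in 116. Both of these counts leave glmTreat aside. Between QKI and RBPMS knockdown Ctnnb1 turned from -0.14 to 0.040 in the normalised table (limma adjusted p = 0.342), and the cause was not tested. Scalings moved the median gene by at most 0.0857 on the log2 scale against control and by at most 0.13 between knockdowns, in QKI against RBPMS knockdown with library totals. Depth limits the genes with few counts: 50 of the 58 lay above the floor of 3 counts and 34 reached 1 CPM.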
